A study of Homo sapiens with 4 samples.

Results

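The genes described here encode 10 transcription factors: the 3 Jun proteins (JUN, JUNB and JUND), the 4 Fos proteins (FOS, FOSB, FOSL1 and FOSL2), and EGR1, BATF and MAFF. They were taken by symbol from a table of 16057 genes, and each of the 10 symbols had 1 row. The cells were MM.1S, a line established from a human multiple myeloma and grown in medium with serum, and their RNA was sequenced. The treated group was given 350 nM of JG342, which inhibits HSP70 chaperones allosterically, and the control group the solvent DMSO; both were collected after 26 h. Each group had 2 libraries, numbered 1 and 2, which the series describes as biological duplicates. All 4 libraries come from 1 cell line, so the spread between them does not cover differences between myelomas.

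AP-1 is a dimer of basic leucine zipper (bZIP) proteins. Jun proteins can pair with each other or with Fos proteins, whereas Fos proteins need a Jun partner, and BATF pairs with Jun proteins to bind next to IRF4 or IRF8 in lymphoid cells. MAFF is a small MAF protein, a bZIP factor without an activation domain of its own that pairs with CNC factors such as NFE2L1 and NFE2L2. EGR1 is a zinc finger factor. With others of the set, such as FOS, FOSB, JUN and JUNB, it belongs to the immediate early genes. Their transcripts appear quickly and fade soon after growth factors or stress activate MAP kinases. JUND, by contrast, is known for steady expression in many tissues.

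JUN and BATF rose and JUNB and EGR1 fell after JG342, while JUND, MAFF, FOS, FOSL1 and FOSL2 did not pass the test and FOSB was too low to be fitted. Each gene with a mean of at least 1 TPM (a transcript level corrected for length and scaled to the same total in each library) over the 4 libraries was tested with limma on log2(TPM + 1), a linear model that shares variance estimates across genes, and p-values were adjusted over all genes by the Benjamini-Hochberg method. Of the 9 fitted members, 2 were higher and 2 were lower at a limma adjusted p under 0.05, against 18.4% of all 12042 fitted genes in either direction (10.8% higher and 7.62% lower). Higher genes made up 58.7% of all calls, and 44.6% when the libraries were scaled to equal medians. The median log2 fold change was −0.06 over the 9 fitted members and 0.03 over all fitted genes. The number of members that passed was 5 when the fit included the replicate number as a block. That fit called 34.9% of all fitted genes. It takes same-numbered libraries of the 2 groups as pairs, a pairing inferred from the sample descriptions and not stated there. With any 1 library left out fewer members passed, and fewer of all fitted genes passed as well. The log2 change then ran from 0.32 to 0.66 for JUN and from 0.54 to 0.64 for BATF. For JUNB it ran from −0.87 to −0.62, and for EGR1 from −0.85 to −0.65. EGR1 entered the fit only through its DMSO libraries, as its JG342 mean was below the limit. Of the 4 called members, JUNB alone kept its call in each of the 13 alternative fits run for it.

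The sequences before the start sites of the 4 genes that changed are shown first, because factors of this set are known to act on promoters of the set itself. Each line holds the 250 bases that precede the RefSeq start site (GRCh38.p14), in the direction of transcription, with motif matches in capitals.
JUN (chr1:58784048-58784297, minus strand): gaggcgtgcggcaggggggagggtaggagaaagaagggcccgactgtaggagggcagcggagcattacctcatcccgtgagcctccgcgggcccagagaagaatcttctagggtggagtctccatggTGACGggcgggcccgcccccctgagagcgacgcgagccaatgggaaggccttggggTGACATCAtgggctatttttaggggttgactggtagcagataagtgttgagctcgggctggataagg
BATF (chr14:75522219-75522468, plus strand): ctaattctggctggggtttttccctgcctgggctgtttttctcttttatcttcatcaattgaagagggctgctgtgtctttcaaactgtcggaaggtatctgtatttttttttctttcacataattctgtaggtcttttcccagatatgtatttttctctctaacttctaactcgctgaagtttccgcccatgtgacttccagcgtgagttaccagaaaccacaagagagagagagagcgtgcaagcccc
JUNB (chr19:12791236-12791485, plus strand): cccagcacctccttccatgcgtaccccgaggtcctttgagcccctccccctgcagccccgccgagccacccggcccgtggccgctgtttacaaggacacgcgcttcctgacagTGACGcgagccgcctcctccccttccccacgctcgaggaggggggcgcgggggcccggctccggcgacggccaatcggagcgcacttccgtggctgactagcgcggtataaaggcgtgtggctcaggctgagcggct
EGR1 (chr5:138465229-138465478, plus strand): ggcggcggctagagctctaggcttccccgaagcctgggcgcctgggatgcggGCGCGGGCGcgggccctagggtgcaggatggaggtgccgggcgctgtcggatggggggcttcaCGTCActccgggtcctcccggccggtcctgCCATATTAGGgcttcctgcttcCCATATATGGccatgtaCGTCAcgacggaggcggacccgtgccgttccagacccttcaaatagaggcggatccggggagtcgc

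Capitals mark every match, on either strand, to the AP-1 motif TGANTCA, the cyclic AMP response element TGACGTCA, its first letters TGACG, the ATF4 motif TGATGNAA, the CArG box bound by SRF, the EGR motif GCGNGGGCG, the heat shock element, and TGACATCA. The motifs TGACG and TGACATCA were chosen after these windows and the expression values had been seen, and TGACG is part of TGACGTCA. Within these 250 bases, EGR1 alone of the members with a window held CArG boxes. They were CCATATTAGG from 105 to 96 and CCATATATGG from 83 to 74 bases before the start. The motif was found in 1.16% of 35116 promoter windows of this length. Bases further upstream were not searched, so CArG boxes of other members there would be missed. EGR1 also held GCGCGGGCG, a match to the EGR motif (8.41% of windows). In JUN, TGACATCA lay from 67 to 60 bases before the start, and 2.37% of all windows held that word. JUND and MAFF each held TGACGTCA (1.65% of windows). TGACG was present in 8 of the 10 member windows (MAFF has 2 windows) and in 21.2% of all windows, and BATF and the second window of MAFF lacked it. None of the member windows held TGANTCA (6.57% of all windows), TGATGNAA (3.14%) or the heat shock element (0.427%), which says only that these letters are not in these 250 bases. FOSL1 had no window. No motif separated the members that rose from those that fell, as JUN and JUNB both held TGACG while BATF held none of the words searched.

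Levels before treatment differed widely between the members, on the TPM scale, which corrects for transcript length. JUND was the most abundant, with 141 and 139 TPM in DMSO replicates 1 and 2, and it ranked at percentile 93.0 of all 16057 genes. JUNB and JUN followed at percentiles 80.4 and 76.8: JUNB stood at 49.2 and 51.3 TPM and JUN at 46.6 and 36.6 TPM, so that the gap between them in replicate 1 was smaller than the gap between the 2 JUN values. MAFF lay at 21.8 and 24.8 TPM, BATF at 6.71 and 7.26 TPM, and FOSL2 at 5.33 and 5.18 TPM. The DMSO libraries of these 6 genes kept the same order in both, from JUND down to FOSL2. FOS (2.38 and 2.71 TPM), FOSL1 (0.86 and 2.41 TPM), EGR1 (1.63 and 1.51 TPM) and FOSB (0.45 and 0.35 TPM) were low, and FOSL1 overlapped FOS and EGR1 closely enough that their order is not settled. Converted with an approximate read depth, the DMSO values of FOSL1 and FOSB rest on 5 to 13 and on 6 to 8 reads, and those of EGR1 and FOS on 22 to 27 reads.

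**Figure D1:**
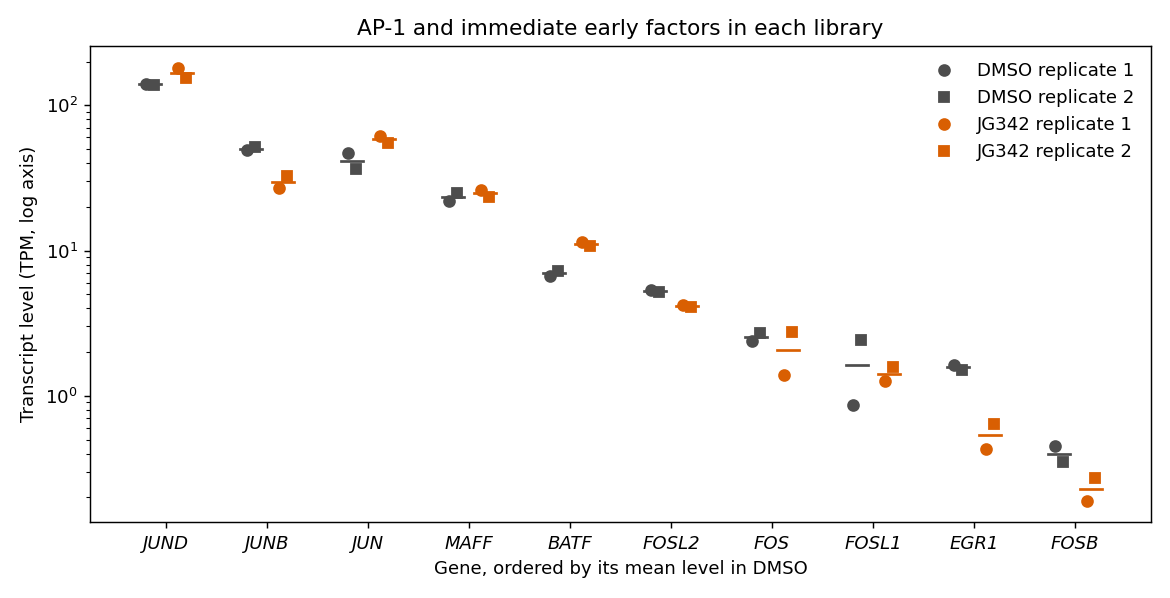
Transcript level (TPM, log axis) of each member in each of the 4 libraries, with the genes ordered by their DMSO mean; circles are replicates numbered 1, squares are replicates numbered 2, and short lines are group means (n = 2). The JG342 points lie above the DMSO points for JUND, JUN and BATF, below them for JUNB, FOSL2, EGR1 and FOSB, and overlap them for MAFF, FOS and FOSL1; for FOS, 1 JG342 point is the lowest and the other the highest of the 4.

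JUN, the founding Jun protein and a nuclear substrate of the JNK kinases, rose after JG342. Its level was 46.6 and 36.6 TPM with DMSO and 61.6 and 55.3 TPM with JG342, so both treated libraries were above both controls, and the DMSO libraries differed more from each other than the JG342 libraries did. The means were 41.6 ± 7.11 and 58.4 ± 4.43 TPM (SD, n = 2), a ratio of 1.40. On the log2(TPM + 1) scale the change was 0.49 ± 0.14 SE (limma adjusted p 0.0373), with 0.39 in the pair of replicates numbered 1 and 0.58 in the pair numbered 2. The call did not hold without DMSO replicate 2 (0.32, limma adjusted p 0.244), without JG342 replicate 1 (0.41, limma adjusted p 0.121) or when libraries were scaled to equal medians (0.42, limma adjusted p 0.0808).

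JUNB, a Jun protein that activates less than JUN at many sites and can oppose it, fell. It measured 49.2 and 51.3 TPM with DMSO against 27.0 and 32.4 TPM with JG342, and the groups were well apart. The means were 50.2 ± 1.51 and 29.7 ± 3.77 TPM (SD, n = 2), a ratio of 0.591. The log2 change was −0.74 ± 0.12 SE (limma adjusted p 0.00516), with −0.84 and −0.65 in the pairs numbered 1 and 2. In GENCODE release 29, exons of HOOK2 on the other strand share 259 bases with those of JUNB, and whether reads were counted by strand is not given in the sources used here. HOOK2 stood at 6.50 and 8.64 TPM with DMSO and 8.07 and 9.56 TPM with JG342 (log2 change 0.20 ± 0.18 SE, limma adjusted p 0.455).

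JUND did not pass, unlike the other Jun genes. It read 141 and 139 TPM with DMSO and 182 and 154 TPM with JG342, so the treated libraries were higher without overlap but stood far from each other. The log2 change was 0.26 ± 0.11 SE with a 95% interval from 0.01 to 0.50 (limma adjusted p 0.128), and without JG342 replicate 1 it was 0.14 (limma adjusted p 0.507). With the replicate block it passed (limma adjusted p 0.0134), in a fit that gave no weight to the spread of JUND itself. It did not pass when the block was combined with median scaling (limma adjusted p 0.0971).

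With JUN higher and JUNB lower, the make-up of the Jun family differed between the groups. The 3 genes summed to 237 and 226 TPM with DMSO and to 270.3 and 241 TPM with JG342, and the means, 232 ± 7.28 and 256 ± 20.5 TPM (SD, n = 2), differed by 24.2 TPM. That difference ranged from 9.74 TPM without JG342 replicate 1 to 38.7 TPM without JG342 replicate 2. The share of JUNB in the sum was 20.8% and 22.7% with DMSO and 10.0% and 13.4% with JG342. JUN made up 19.7% and 16.1% of the sum with DMSO and 22.8% and 22.9% with JG342. For JUND the shares were 59.5% and 61.2%, then 67.2% and 63.7%. The ratio of JUN to JUNB in TPM went from 0.948 and 0.713 in the DMSO libraries to 2.28 and 1.71 in the JG342 libraries, so JUNB exceeded JUN in both controls and JUN exceeded JUNB in both treated libraries. These shares are descriptions: an exact permutation test of 2 libraries against 2 cannot reach a p under 0.05.

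**Figure D2:**
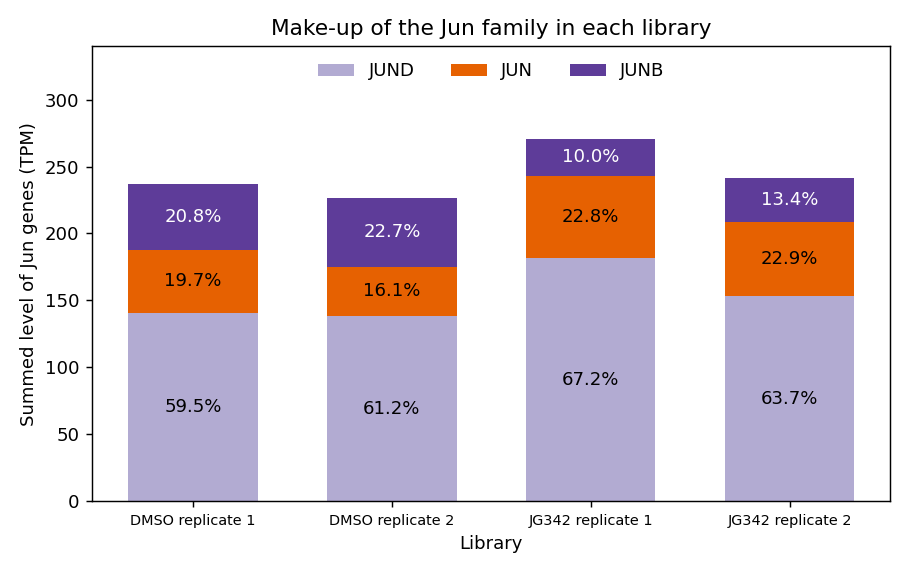
Stacked bars of the TPM of JUND, JUN and JUNB in each library, from 0, with each gene's share of the bar printed inside it. The JUNB segment is 20.8% and 22.7% of the 2 DMSO bars and 10.0% and 13.4% of the 2 JG342 bars.

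Fos genes were a small part of the AP-1 transcripts, and none of the 3 that were fitted passed the limma test (0 also at an unadjusted p under 0.05, and 0 with the replicate block). The 4 genes summed to 9.02 and 10.7 TPM with DMSO and 7.06 and 8.67 TPM with JG342, so both treated sums were below both control sums, by little in the closest case (8.67 against 9.02 TPM). Jun transcripts outnumbered Fos transcripts by 26.2 and 21.3 times with DMSO and by 38.3 and 27.8 times with JG342. FOSL2, which supplied the most Fos transcripts in all 4 libraries, was at 5.33 and 5.18 TPM and then at 4.22 and 4.10 TPM. The groups were apart for FOSL2, yet its log2 change of −0.28 ± 0.16 SE did not pass (95% interval −0.65 to 0.09, limma adjusted p 0.267).

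FOS, the prototype of the family and a classic immediate early gene, measured 2.38 and 2.71 TPM with DMSO and 1.38 and 2.73 TPM with JG342. JG342 replicate 1 was the lowest of the 4 and JG342 replicate 2 the highest, just above DMSO replicate 2, so the groups overlapped. Its log2 change was −0.25 ± 0.24 SE (95% interval −0.80 to 0.30, limma adjusted p 0.513), and its sign turned without JG342 replicate 1 (0.075). FOSL1, known as FRA1, stood at 0.86 and 2.41 TPM and at 1.27 and 1.57 TPM, with both treated values between the controls. The log2 change of FOSL1 was −0.06 ± 0.29 SE (95% interval −0.72 to 0.60, limma adjusted p 0.909), and its sign turned without DMSO replicate 2 (0.38) and without JG342 replicate 1 (0.03). FOSB was left out of the fit by its mean level. Its libraries read 0.45 and 0.35 TPM with DMSO and 0.19 and 0.27 TPM with JG342, or about 8, 6, 3 and 5 reads. When all genes were fitted with no limit on the level, the log2 change of FOSB was −0.19 ± 0.09 SE (limma adjusted p 0.283).

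EGR1, a zinc finger factor whose promoter holds the CArG boxes shown above, fell from a low level. It was at 1.63 and 1.51 TPM with DMSO and at 0.43 and 0.64 TPM with JG342, with no overlap and a ratio of means of 0.341. The means were 1.57 ± 0.0849 and 0.535 ± 0.148 TPM (SD, n = 2). These values correspond to about 24 and 22 reads in the controls and 6 and 10 reads in the treated libraries. EGR1 entered the fit only through its DMSO libraries, as its JG342 mean was below the limit of 1 TPM. With no filter on low values EGR1 passed as well (limma adjusted p 0.0473). On the log2(TPM + 1) scale, which understates changes at this level, EGR1 changed by −0.75 ± 0.22 SE (limma adjusted p 0.0446), and the pairs numbered 1 and 2 gave −0.88 and −0.61. The adjusted p is close to the threshold: leaving out any single library ended the call, with limma adjusted p of 0.158 and 0.140 without DMSO replicates 1 and 2 and of 0.144 and 0.0672 without JG342 replicates 1 and 2.

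BATF, a lymphoid bZIP factor without an activation domain of its own, rose. It measured 6.71 and 7.26 TPM with DMSO and 11.4 and 10.8 TPM with JG342, and replicates lay close together on both sides. These levels rest on few reads, about 31 and 33 in the controls and 48 and 52 in the treated libraries. The means were 6.99 ± 0.389 and 11.1 ± 0.431 TPM (SD, n = 2), a ratio of 1.58. The log2 change was 0.59 ± 0.14 SE (limma adjusted p 0.0230), with 0.68 and 0.51 in the pairs. With 1 library fewer the size stayed between 0.54 and 0.64, and the limma adjusted p was 0.124 without DMSO replicate 1, 0.0929 without DMSO replicate 2, 0.0734 without JG342 replicate 1 and 0.0435 without JG342 replicate 2. IRF4, the factor that BATF and Jun proteins bind beside and on which myeloma cells are known to depend, rose as well. IRF4 was at 352.9 and 352.6 TPM with DMSO and 589 and 615 TPM with JG342 (log2 change 0.77 ± 0.09 SE, limma adjusted p 0.000986). The related IRF8 measured 6.13 and 4.67 TPM and then 7.98 and 6.19 TPM, and did not pass (0.34, limma adjusted p 0.244).

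MAFF, the small MAF protein, did not pass. Its libraries read 21.8 and 24.8 TPM with DMSO and 26.1 and 23.5 TPM with JG342, and they overlapped. The log2 change was 0.09 ± 0.13 SE (95% interval −0.20 to 0.38, limma adjusted p 0.670), with opposite signs in the pairs (0.25 and −0.07). Groups did not overlap for 6 of the 9 fitted members (66.7%), against 62.1% of all fitted genes, a share near the background.

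**Figure D3:**
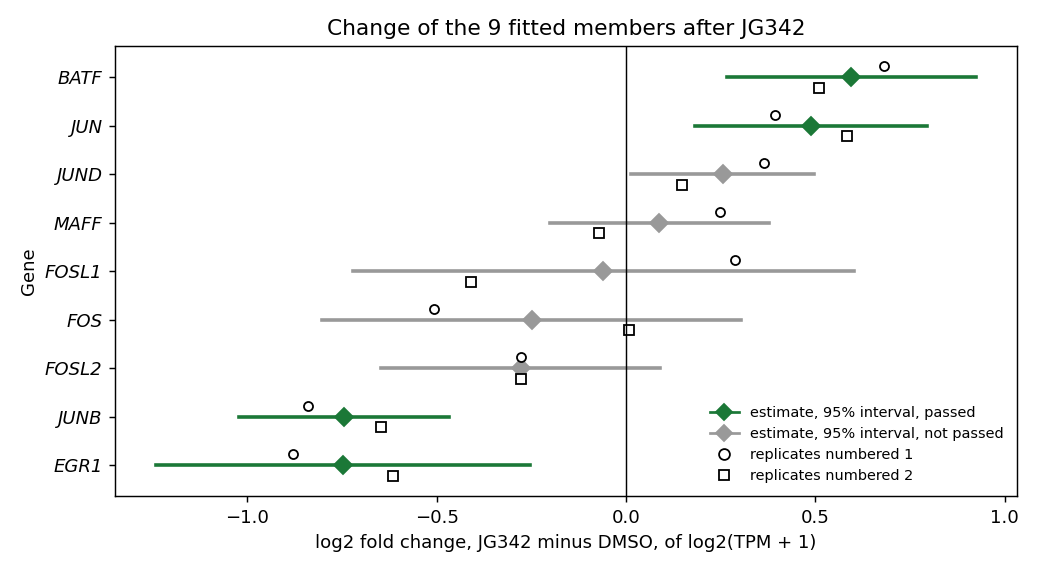
Change of the 9 fitted members as JG342 minus DMSO on the log2(TPM + 1) scale: diamonds are limma estimates with 95% intervals, green where the limma adjusted p was under 0.05, and open circles and squares are the differences within the replicates numbered 1 and 2. BATF (0.59) and JUN (0.49) lie to the right of 0, JUNB (−0.74) and EGR1 (−0.75) to the left, and the pairs of FOSL1, FOS and MAFF fall on both sides of 0.

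Around these members, 127 other genes of the fixed lists were fitted, and 33 of them passed, 20 higher and 13 lower (26.0%, against 18.4% of all fitted genes). Their median log2 change was −0.01. The count was 56 with the replicate number as a block, a fit that called 34.9% of all fitted genes. It was lower without DMSO replicate 1 and without DMSO replicate 2, as was the count over all fitted genes. The lists were chosen with earlier results of these data known, so the difference between 26.0% and 18.4% is no independent evidence.

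Other bZIP factors can pair with Jun, Fos or one another. Of 14 fitted, 7 rose, none fell and 7 did not pass (50% called, against 18.4% of all fitted genes). Their median log2 change was 0.40. ATF3, a stress-induced partner of JUN, went from 26.5 and 30.8 TPM to 135 and 138 TPM (2.22 ± 0.11 SE, limma adjusted p 3.03e-05). CEBPG, a partner of ATF4 without an activation domain, went from 25.5 and 24.7 TPM to 67.6 and 68.2 TPM (1.40 ± 0.11 SE, limma adjusted p 0.000124). ATF3 and the other genes linked to ATF4 were already known to be higher from earlier results of these data, so their count is no independent evidence. JDP2 is a Jun dimerization protein that represses AP-1 sites. JDP2 was at 0.06 and 0.79 TPM with DMSO and 4.53 and 4.34 TPM with JG342 (1.98 ± 0.27 SE, limma adjusted p 0.00217). It entered the fit only through its JG342 libraries, as its DMSO mean of 0.425 TPM was below the limit. DDIT3, CEBPB, ATF4 and CREB3L2 also rose, by 3.25, 2.72, 1.25 and 0.49, and these 4 and JDP2 were named after their values were seen. ATF4 was at 0.80 without DMSO replicate 1 (limma adjusted p 0.0173), and it did not pass when genes of all levels were fitted (limma adjusted p 0.0917). CREB3L2 did not pass without DMSO replicate 1 or without DMSO replicate 2 (limma adjusted p 0.0891 and 0.0533). ATF1, ATF2, ATF5, ATF6, ATF7, CREB1 and BATF3 did not pass, with log2 changes between −0.20 and 0.32. In the DMSO libraries ATF3 was less abundant than JUN, while after JG342 it exceeded JUN, both in TPM.

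MAF, CNC and BACH factors, the partners and competitors of MAFF, gave 2 higher and 1 lower of 8 fitted (median 0.15). That is 37.5% called, against 18.4% of all fitted genes. NFE2L1, the factor that raises proteasome genes when proteasome activity drops, went from 87.1 and 89.0 TPM to 448 and 343 TPM (2.14 ± 0.13 SE, limma adjusted p 4.23e-05). BACH1, a repressor that binds with small MAF proteins, went from 17.4 and 18.8 TPM to 30.4 and 24.9 TPM (0.58 ± 0.14 SE, limma adjusted p 0.0204). MAF, chosen after its value was seen and known as an oncogene of some myelomas, fell from 323 and 320.4 TPM to 270.2 and 203 TPM (−0.46 ± 0.13 SE, limma adjusted p 0.0417). The count of 3 became 5 with the replicate number as a block (62.5%, against 34.9% of all fitted genes). NFE2L1 alone of the 3 passed with any 1 library left out. BACH1 was at 0.44 without JG342 replicate 1, and MAF at −0.25 without JG342 replicate 2. Of the other small MAF genes, MAFG was at 44.7 and 43.9 TPM and then 55.5 and 46.3 TPM (0.19), and MAFK at 20.7 and 22.3 TPM and then 18.2 and 15.3 TPM (−0.35); neither passed.

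Other immediate early genes split in both directions, as the members and all fitted genes did. Of 33 fitted, 5 rose, 7 fell and 21 did not pass (36.4% called, against 18.4% of all fitted genes, median −0.14). PPP1R15A, the phosphatase subunit also known as GADD34, went from 47.6 and 61.5 TPM to 197 and 258 TPM (2.04 ± 0.16 SE, limma adjusted p 0.000137). BTG1, an antiproliferative gene, went from 73.4 and 77.8 TPM to 134 and 137 TPM (0.83 ± 0.10 SE, limma adjusted p 0.00102). The remaining calls were named after their values were seen: GADD45A, ZFP36L1 and MCL1 rose by 1.01, 0.82 and 0.43, and MYC, TNFAIP3, KLF10, DUSP5, KLF2, GADD45G and IER3 changed by −0.66, −0.59, −0.78, −0.45, −0.54, −0.75 and −0.81. GADD45G and IER3 stood close to the threshold, with limma adjusted p of 0.0441 and 0.0450. IER3 was at −0.47 without DMSO replicate 2. GADD45G entered the fit only through its DMSO libraries, as its JG342 mean of 0.50 TPM was below the limit. PPP1R15A, BTG1, GADD45A, ZFP36L1 and MYC passed with any 1 library left out, and the other 7 did not in at least 1 case. The count of 12 became 18 with the replicate block (54.5%, against 34.9% of all fitted genes). It fell without DMSO replicate 1 and without DMSO replicate 2, as did the count over all fitted genes. NR4A1, an orphan nuclear receptor among the classic immediate early genes, did not pass: it was at 6.23 and 10.8 TPM with DMSO and 7.37 and 10.1 TPM with JG342 (0.06), higher in the libraries numbered 2 of either treatment. EGR2, EGR3, KLF4, NR4A2, NR4A3, CCN1, CCN2 and SOCS3 lay below the limit for the fit, the highest single value among them being 1.32 TPM (KLF4 in JG342 replicate 2).

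The signalling chain upstream of AP-1 runs through MAP kinases. Among 31 MAP kinases and upstream kinases, 1 rose and 1 fell (6.45% called, with 18.4% over all fitted genes; the difference was not tested), and the median was −0.02. BRAF, a kinase that activates the ERK branch, went from 12.7 and 12.6 TPM to 21.2 and 16.6 TPM (0.54 ± 0.15 SE, limma adjusted p 0.0377), and MAPK3, which encodes ERK1, from 66.1 and 70.8 TPM to 47.3 and 51.99 TPM (−0.46 ± 0.11 SE, limma adjusted p 0.0198). Neither passed without DMSO replicate 1 or without DMSO replicate 2, where the count was 0; it was 1 without JG342 replicate 1, 4 without JG342 replicate 2, 1 with median scaling and 8 with the replicate block (25.8%, with 34.9% over all fitted genes). SRF and its cofactors, which act on CArG boxes, gave no call among 6 fitted (limma, with 0 at an unadjusted p under 0.05, and 0 with the replicate block), and SRF itself was at 32.6 and 37.3 TPM and then 33.9 and 35.6 TPM. ERK feedback genes gave 1 higher and 2 lower of 11 (27.3% called, against 18.4% of all fitted genes, median 0.05). ETV5, an ETS factor, went from 13.4 and 21.8 TPM to 33.1 and 43.3 TPM (1.10 ± 0.21 SE, limma adjusted p 0.00979), and PHLDA1 from 16.4 and 18.6 TPM to 8.09 and 12.2 TPM (−0.75 ± 0.19 SE, limma adjusted p 0.0251). SPRY1, an inhibitor of receptor signalling named after its value was seen, fell by 0.54 (limma adjusted p 0.0382). Leaving out either DMSO replicate left 1 of these 3 calls, ETV5. PHLDA1 and SPRY1 did not pass without JG342 replicate 1 either (PHLDA1 at −0.48 and SPRY1 at −0.58). SPRY1 also did not pass without JG342 replicate 2 (−0.50). The replicate block gave 5 calls in this list (45.5%, against 34.9% of all fitted genes). DUSP6, the ERK phosphatase commonly read as a gauge of ERK output, was named after its value was seen. It was at 35.9 and 37.4 TPM and then 35.2 and 43.6 TPM (0.09, limma adjusted p 0.662). DUSP4 of the same list was at 31.0 and 28.9 TPM and then 24.9 and 18.3 TPM. It did not pass either (−0.47, limma adjusted p 0.0652). ERK output was not tested.

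Genes that limit AP-1 proteins, and genes that AP-1 controls, were also listed. FBXW7 is the substrate receptor of a ubiquitin ligase that marks JUN for destruction. It went from 21.3 and 20.4 TPM to 42.0 and 34.7 TPM (0.84 ± 0.13 SE, limma adjusted p 0.00383). FBXW7 was the single call among 11 such genes (9.09%, against 18.4% of all fitted genes). With the replicate block 5 passed (45.5%, against 34.9% of all fitted genes). COP1, which also targets JUN, was at 47.7 and 45.0 TPM and then 43.5 and 45.3 TPM (−0.06). Among 12 fitted AP-1 target genes, 2 rose and 2 fell (33.3% called, against 18.4% of all fitted genes, median −0.10). VIM, encoding the filament protein vimentin, went from 1281 and 1247 TPM to 1677 and 2093 TPM (0.57 ± 0.12 SE, limma adjusted p 0.0117). TXNRD1, a thioredoxin reductase, went from 112 and 125 TPM to 86.1 and 79.7 TPM (−0.51 ± 0.10 SE, limma adjusted p 0.0115). CD44 rose by 0.44 and TGFB1 changed by −0.48, both named after their values were seen. Each of these 4 calls was lost in at least 1 fit that left out a library. CD44 was at 0.28 without JG342 replicate 1, and TGFB1 at −0.41 without DMSO replicate 1. Without DMSO replicate 2, VIM was at 0.55 and TXNRD1 at −0.43. With median scaling VIM and CD44 did not pass (limma adjusted p 0.0531 and 0.106). The count of 4 became 7 with the replicate block (58.3%, against 34.9% of all fitted genes) and 2 with median scaling. It fell without DMSO replicate 1 and without DMSO replicate 2, as did the count over all fitted genes. MMP1, MMP9, PLAU, CXCL8, CCL2, IL6 and SPP1, textbook targets of AP-1 in other cells, lay below the limit for the fit; CCL2 in DMSO replicate 1 had the highest single value among them, 2.35 TPM.

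**Figure D4:**
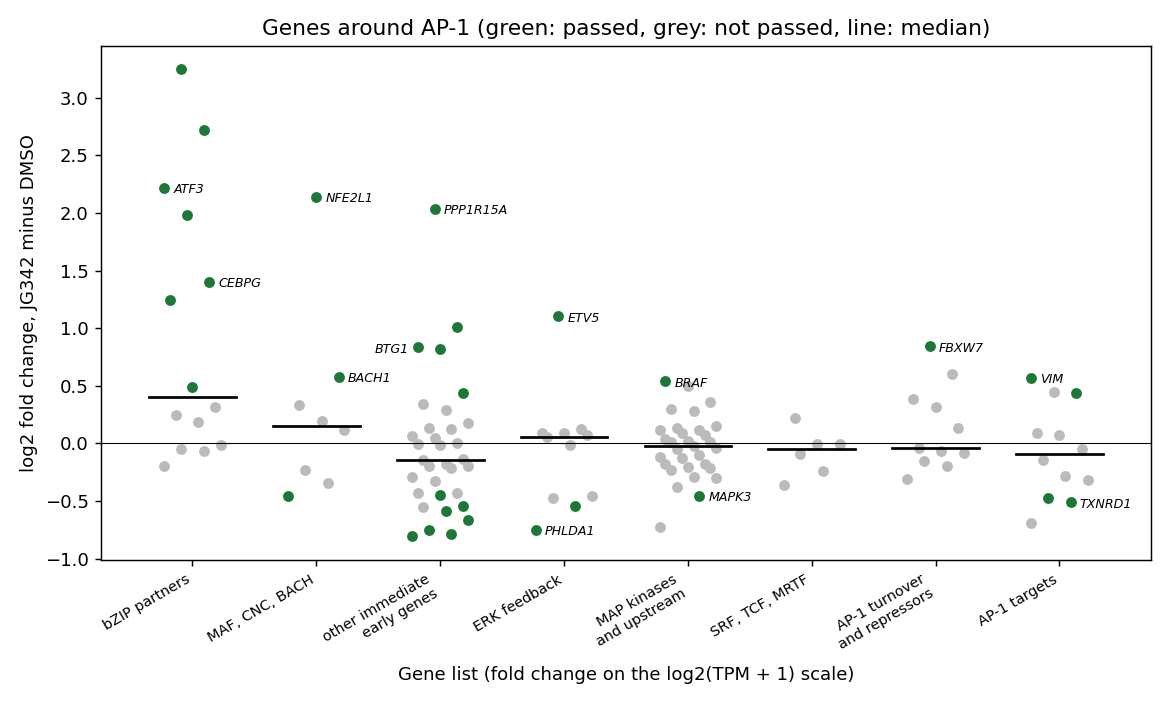
Change of each fitted gene, other than the 10 members, in 8 lists of genes around AP-1, as JG342 minus DMSO on the log2(TPM + 1) scale; green points had a limma adjusted p under 0.05, grey points did not, black lines are list medians, and names mark up to 2 genes per list with the smallest p. The bZIP partners reach 3.25 with 7 green points, all above 0, while the SRF list has none.

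The libraries and the cell identity frame these values. TPM totals lay between 994463 and 994718, and approximate depths between 8620000 and 9530000 reads. All 10 plasma cell and myeloma markers were fitted. They summed to between 14838 and 15116 TPM with DMSO and between 10251 and 10940 TPM with JG342. JCHAIN, the joining chain of secreted immunoglobulins, made up most of that sum. Of these markers 2 were higher, IRF4 and PRDM1, and 2 lower, JCHAIN and TNFRSF17 (40% called, against 18.4% of all fitted genes). PRDM1 and TNFRSF17 stood close to the threshold (limma adjusted p 0.0410 and 0.0472). Stromal markers summed to between 0.80 and 1.39 TPM, T cell markers to between 9.75 and 14.6 TPM, epithelial markers to between 6.15 and 11.2 TPM and monocyte markers to between 76.5 and 84.8 TPM, the last carried by LYZ and CD68 with CD14 and CSF1R under 1 TPM. Of the 2 T cell markers fitted, CD3G was higher (3.99 and 5.10 TPM, then 9.34 and 7.92 TPM; log2 change 0.80, limma adjusted p 0.0152), and CD3E was at 5.49 and 7.70 TPM, then 5.26 and 3.21 TPM, and did not pass (−0.55, limma adjusted p 0.132). The part of these markers in the results above was not tested. In bulk RNA, fewer cells with a transcript and less of it per cell cannot be told apart.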

How the data were processed

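RNA sequencing of 4 libraries was analysed, 2 with DMSO and 2 with JG342. The authors deposited 1 value per gene and library, taken here to be TPM from the library sums. Per the submitters' processing notes, HISAT2 2.0.4, Bowtie2 2.2.5 and RSEM 1.2.12 were used; their roles, the build, the annotation and strand are not given in the sources used here. TPM are not counts, so no count model was applied. A mean below 1 TPM left 4015 genes out, and the other 12042 were fitted with limma 3.58.1 in R 4.3.3 on log2(TPM + 1), with treatment as the only term, a mean-variance trend, two-sided tests and a threshold of 0.05 on the Benjamini-Hochberg adjusted p. With 2 libraries per group, p-values rest on 2 residual and 6.89 prior degrees of freedom. The fit was tested on simulated data with independent errors, so effects shared across a library or a pair were not simulated.

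The replicate number was added as a block in another fit. Pairing was inferred from the sample descriptions, which share a prefix of unstated meaning between same-numbered libraries. Across genes the deviations of these pairs from the group means gave a Pearson r of 0.27. The block fit had an infinite prior, so its p-values rest on the mean-variance trend and not on each gene's own spread. With median scaling the block fit had 7.49 prior degrees of freedom.

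Named genes are the 10 members and, in each list, the 2 others with the smallest p of those past the threshold; all other names were chosen after their values were seen. The members and lists were chosen with earlier results of these data known. Depth is not recorded in TPM: the worth of 1 read, 0.203 to 0.230 TPM in a transcript of 1000 nt, was read from the steps of low values with GENCODE release 29 lengths, and read numbers are approximate. Promoters are from RefSeq (GRCh38.p14), matched by symbol for 9 of the 10 members. Alternatives changed the pseudocount, filter, scaling, trend, block, threshold and libraries.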

Additional observations from a re-analysis of the deposited data

How the results depend on the processing

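Directions of the 9 fitted members were the same under all alternatives run, except that FOS was at 0.075 without JG342 replicate 1 (range −0.57 to 0.075 with 1 library left out) and FOSL1 at 0.38 without DMSO replicate 2 and 0.03 without JG342 replicate 1 (range −0.50 to 0.38). JUN did not pass with no filter on low values or no variance trend (0.49 in both, limma adjusted p 0.118 and 0.0847), with median scaling (0.42) or with quantile normalization (0.47); with 1 library left out it ran from 0.32 to 0.66. EGR1 did not pass with a pseudocount of 5 (−0.25), was not fitted at a mean of at least 5 TPM, and ran from −0.85 to −0.65 with 1 library left out. BATF did not pass with no filter (0.59, limma adjusted p 0.0759) and ran from 0.54 to 0.64. JUND passed with the replicate block alone (0.26, limma adjusted p 0.0134), and the block changed no other call among the members. Members past the threshold numbered 2 with no filter and 1 at an adjusted p under 0.01, and 1 to 3 with 1 library left out. Over all genes 2221 passed, against 828 with no filter, 788 at an adjusted p under 0.01, 4207 with the replicate block and 3985 with the replicate block and median scaling, and 767 to 1825 with 1 library left out. Among the other list genes 33 passed, against 15 with no filter, 15 at an adjusted p under 0.01, 56 with the replicate block and 59 with the replicate block and median scaling, and 17 to 30 with 1 library left out. Fits that leave out 1 library assume that the lone library varies like the others. By approximate reads, depth is lowest for FOSB, FOSL1, EGR1 and FOS.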
